A study of Mus musculus with 4 samples.

Results

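The genes examined were the nuclear genes of oxidative phosphorylation, the electron transport chain and ATP synthase of the mitochondrial inner membrane. They were the protein-coding genes whose symbols begin with Nduf, Uqcr, Cox4 to Cox8 or Atp5, together with Sdha, Sdhb, Sdhc and Sdhd, and 93 of the 45706 genes in the count table met this rule. The 93 comprised 36 subunits of complex I, 4 of complex II, 8 of complex III, 20 of complex IV and 16 of complex V, 8 assembly factors of complex I named Ndufaf, and Atp5s, a coupling factor placed outside the complexes here. Ndufa4 and its paralogue Ndufa4l2 carry complex I names but were counted with complex IV, where the Ndufa4 protein is found, and Cox7a2l, a supercomplex factor related to Cox7a2, was counted there too. Nuclear subunits whose symbols fall outside the rule, such as Cyc1 of complex III, were not members.

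RNA was measured in 4 libraries labelled as medial basal radial glia, neural progenitors that lie away from the ventricle, taken from mouse embryos at E18.5. All 4 libraries carried the same labels: strain C57BL/6JOlaHsd, genotype Tubb-GFP/+ (heterozygous for the reporter) and the lipophilic dye DiI. There was therefore no contrast between groups, and the comparisons below set genes against genes, or against a fixed level, with the 4 libraries as replicates. Nothing in the labels ties each library to an animal of its own, so p-values and SDs describe the spread among these samples alone, and that spread may be technical.

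Complex I takes electrons from NADH and complex II takes them from succinate; both pass them to ubiquinone, complex III passes them on to cytochrome c, and complex IV hands them to oxygen. Complexes I, III and IV pump protons as they work, and complex V, the ATP synthase, lets the protons back through a rotor made of c subunits to drive its catalytic head. Several complex IV subunits and the c subunit exist as paralogues from different genes, and some of these are known from muscle, testis or oxygen-poor tissue rather than from most cells. A handful of subunits are encoded by mitochondrial DNA, and the members described here are the nuclear ones.

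The libraries held between 26540656 and 34837657 counts. All 8 radial glia markers lay above 1 TPM (summed level 5021 to 6115 TPM), but so did all 7 neuron markers (9376 to 10472 TPM), all 5 intermediate progenitor markers (1174 to 1267 TPM), all 6 erythroid markers (2377 to 4203 TPM) and all 5 microglia markers (16.5 to 35.5 TPM). TPM here means counts divided by the gene's merged exon length and scaled to a sum of 1000000 per library. Among protein-coding genes with at least 10 counts, 75.7% were called above 1 TPM, so passing that level does not identify a cell type. The neuron markers summed higher than the radial glia markers in every library, so the levels below cannot be assigned to radial glia alone. Because these are bulk samples, fewer cells of a type and less RNA per cell cannot be told apart.

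The members together were abundant and even across the libraries. They took 1.85% of all counts in replicate 1, 1.90% in replicate 2, 1.80% in replicate 3 and 1.70% in replicate 4, and 3.67%, 3.80%, 3.62% and 3.48% of summed TPM in the same order. Replicate 2 was highest and replicate 4 lowest on both scales. The median member stood at 290 TPM and the median protein-coding gene at 9.0 TPM, and 67 members (72.0%) were above 100 TPM, against 10.3% of the 15401 protein-coding genes with at least 10 counts. For scale, the 101 cytosolic ribosomal protein genes had a median of 456 TPM and the 40 proteasome subunit genes a median of 239 TPM.

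Of the 93 members, 91 reached the minimum of 10 counts over the 4 libraries and were tested against a fixed level of 1 TPM with a one-sample form of edgeR's quasi-likelihood test, Benjamini-Hochberg adjusted over 20991 genes. The test called 89 members above 1 TPM and 0 below it; among protein-coding genes it called 75.7% above and 11.5% below. Against the level of the median protein-coding gene, 81 members were called above and 8 below, with 47.1% of protein-coding genes above and 46.5% below. The 2 members tested but not called against 1 TPM were Cox6a2 and Cox7b2, and the 2 not tested were Cox8b and Cox8c, all paralogues of complex IV subunits. Below the median gene were Ndufab1, Atp5l, Ndufaf6, Cox7a1, Cox6b2, Ndufa4l2, Cox7b2 and Cox6a2, while Cox5a and Atp5s could not be placed on either side.

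**Figure D1:**
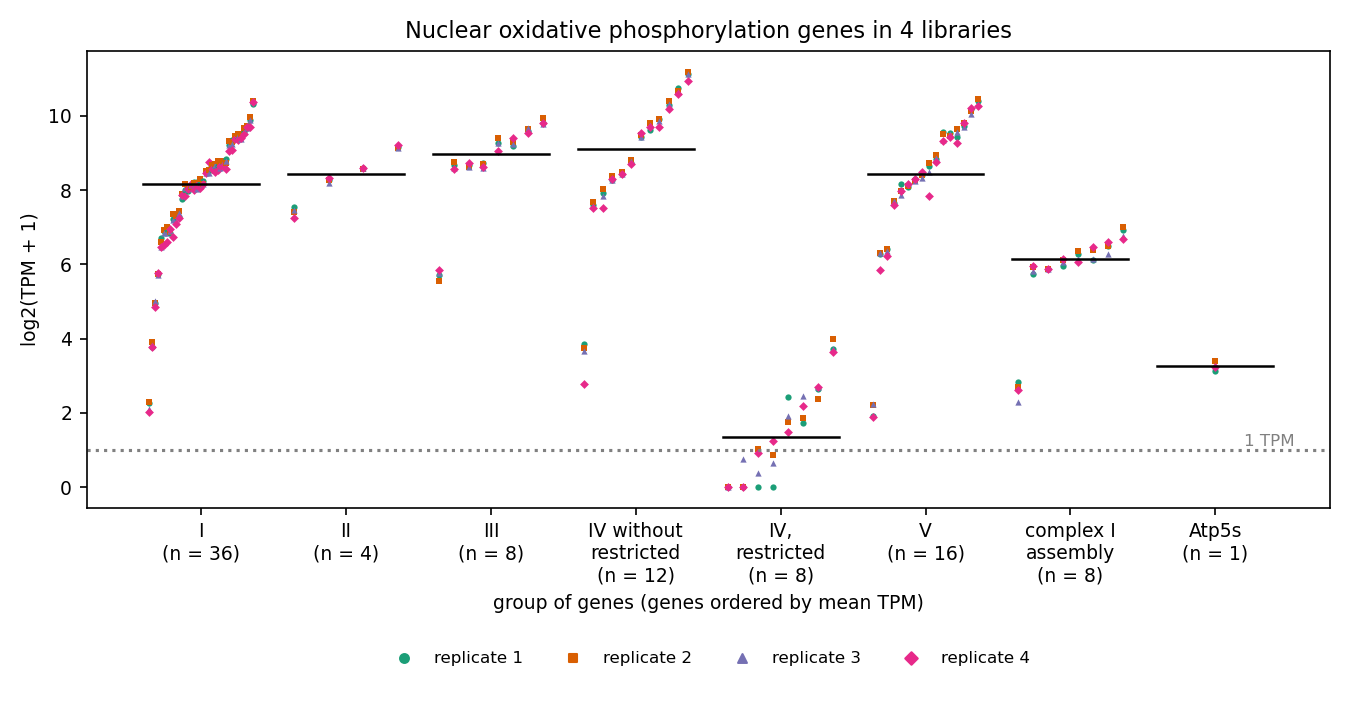
Level of each of the 93 members as log2(TPM + 1), with 1 marker per library and genes ordered by mean TPM within each group; black lines are group medians and the dotted line is 1 TPM. Complex IV splits into 12 genes without the restricted isoforms, 11 of them above 100 TPM, and 8 restricted isoforms, all below 15 TPM in every library.

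Complex IV, cytochrome c oxidase, showed the widest split. Cox6a1 was the highest of all 93 members on the merged exon length, with 2236, 2337, 2248 and 1960 TPM in replicates 1 to 4 (mean 2195 ± 163, SD, n = 4). Cox4i1, whose protein is the regulatory subunit that binds ATP, followed with 1703, 1632, 1587 and 1538 TPM (1615 ± 70.2). Replicate 4 was the lowest library for both genes, and the ranges of the 2 genes did not overlap. With the principal transcript as length Cox4i1 (2168 TPM) was above Cox6a1 (1788 TPM), and likewise with the longest transcript (2476 and 1881 TPM). Cox6b1, which links the monomers of the dimeric enzyme, had a mean of 1261 ± 72.6 TPM, Cox8a 921 ± 59.3 TPM, Cox7a2 839 ± 45.9 TPM and Ndufa4 708 ± 23.8 TPM. Cox7c, Cox7b, Cox7a2l, Cox5b and Cox6c lay between 192 and 432 TPM.

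The exception among the widely used complex IV genes was Cox5a, a subunit on the matrix side of the enzyme. It read 13.4, 12.3, 11.7 and 5.84 TPM, a mean of 10.8 ± 3.38, from 251, 291, 236 and 101 counts. Replicate 4 was at 46.9% of the mean of the other libraries. Its partner subunit Cox5b read 241, 261, 228 and 182 TPM and was also lowest in replicate 4. Of the principal transcript of Cox5a, 41.7% overlaps exons of Gm26631 in the annotation, and the length used matters: with the principal transcript alone as length its mean was 23.3 TPM.

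The 8 restricted isoforms were low in all 4 libraries. Cox4i2, known from lung and from the response to low oxygen, read 12.2, 14.9, 12.3 and 11.6 TPM. It was the only one of the 8 called above the median gene on the merged exon length (adjusted p = 0.00868, edgeR). Its mean was 12.7 TPM on that length and 9.07 TPM with the principal transcript, where its call is not given here. The heart and skeletal muscle isoform Cox7a1 read 5.22, 4.15, 5.45 and 5.45 TPM, and Cox6b2, a testis isoform, 2.32, 2.65, 4.51 and 3.51 TPM. Ndufa4l2, a gene induced by low oxygen, read 4.39, 2.35, 2.76 and 1.77 TPM. Each of the last 3 was above 1 TPM and below the median gene by the same test, and the libraries did not keep one order across them.

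Cox6a2, the muscle isoform of the same subunit as Cox6a1, had 0, 8, 2 and 5 counts, or 0, 1.05, 0.306 and 0.893 TPM, and was not told apart from 1 TPM (adjusted p = 0.368, edgeR). Cox7b2 had 0, 5, 3 and 6 counts and a mean of 0.685 ± 0.558 TPM (adjusted p = 0.535). Cox8c, a testis isoform, had 3 counts, all in replicate 3. Cox8b, the muscle isoform of subunit VIII, had 0 counts in every library, where 3 counts would have read 0.740 to 1.01 TPM depending on the library. These limits cover counting error only, since amplified reads without molecular identifiers are not independent molecules.

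Within each pair of paralogues the widely used gene was the higher one in 4 of 4 libraries. The log2 ratio of (TPM + 1) was 6.88 ± 0.14 for Cox4i1 over Cox4i2 (SD, n = 4), so that Cox4i2 made up 0.782% of the pair's summed TPM. It was 10.51 ± 0.52 for Cox6a1 over Cox6a2, 8.24 ± 0.35 for Cox6b1 over Cox6b2, 7.12 ± 0.21 for Cox7a2 over Cox7a1, 7.76 ± 0.51 for Cox7b over Cox7b2 and 7.58 ± 0.45 for Ndufa4 over Ndufa4l2. Since Cox6a2 and Cox7b2 had 0 counts in replicate 1, their ratios rest on the pseudocount and were 12.21 and 9.31 with a pseudocount of 0.1. Cox8a was at least 825-fold higher than Cox8b, taken against 3 counts per library. The pair of Cox7a2 and its relative Cox7a2l was much closer, at 1.41 ± 0.06, or 2.66-fold. For the 12 pairs compared, the exact two-sided sign-flip permutation test over the 4 libraries gave p = 0.13 (adjusted 0.13), the smallest p that 4 libraries allow, so no pair could pass 0.05.

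**Figure D2:**
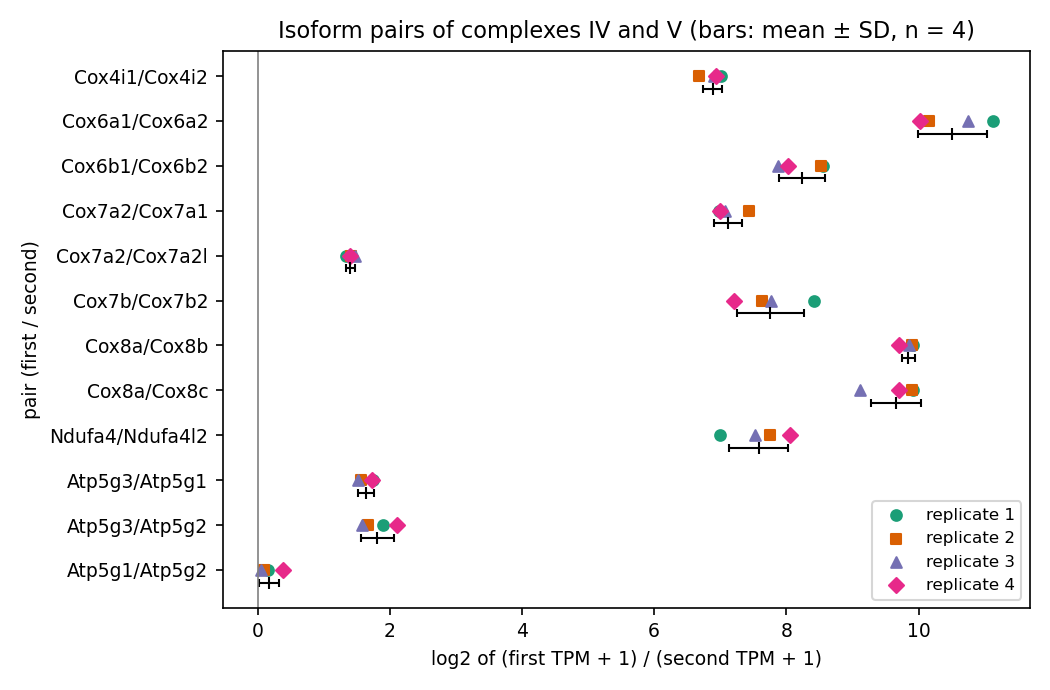
Log2 ratio of (TPM + 1) for 12 pairs of paralogues, with 1 marker per library and the mean ± SD (n = 4) drawn under the markers. All markers lie right of 0; the complex IV pairs with a restricted isoform lie between about 6.7 and 11.1, and the c subunit pairs below 2.2.

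The defining markers of the tissues these isoforms are known from were read beside them. Of 7 striated muscle markers 0 were called above 1 TPM, 2 were below it, 1 was not called and 4 had too few counts to be tested. The summed level of the 7 was 0.466 to 1.67 TPM and Tnni2 was at 0 counts. Of 6 testis germ cell markers 0 were called above 1 TPM, but 5 had too few counts to be tested and 1 was not called. The summed level of the 6 was 1.05 to 1.46 TPM and Pgk2 was at 0. Of 9 mural cell markers, the pericytes and vascular muscle where Ndufa4l2 is often found, 3 (Pdgfrb, Rgs5 and Cspg4) were above 1 TPM. Another 2 (Abcc9 and Myh11) were below it, 3 (Kcnj8, Vtn and Acta2) were not called and Higd1b was not tested. The summed level of the 9 was 12.2 to 16.0 TPM, none were at 0 and 8 were below the median gene. Of 6 endothelial markers 1, Esam, was above 1 TPM, 3 (Cdh5, Flt1 and Kdr) were below it and 2 (Pecam1 and Cldn5) were not called. The summed level of the 6 was 3.17 to 4.83 TPM, and all 6 were below the median gene. Among protein-coding genes tested 75.7% were above 1 TPM and 11.5% below it. The part of mural or endothelial cells in the Cox4i2 and Ndufa4l2 reads was not tested.

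The bases just upstream of the start of a widely used gene and of its restricted partner are shown for 2 pairs as examples. They are the 200 bases before the RefSeq start (GRCm38.p6), read 5′ to 3′ on the gene's own strand; all 4 genes lie on the minus strand. Capitals mark the CCAAT box (or ATTGG on the other strand), the ETS core CCGGAAG (or CTTCCGG) and the SP1 core GGGCGG. The stretches are chr7:30626115-30626314 for Cox6b1, chr7:4753095-4753294 for Cox6b2, chr19:7217617-7217816 for Cox8a and chr7:140900447-140900646 for Cox8b.
Cox6b1: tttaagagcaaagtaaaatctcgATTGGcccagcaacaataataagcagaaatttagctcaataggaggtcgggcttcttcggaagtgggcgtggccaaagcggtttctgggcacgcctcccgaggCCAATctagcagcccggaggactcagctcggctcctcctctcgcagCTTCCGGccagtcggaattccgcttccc
Cox6b2: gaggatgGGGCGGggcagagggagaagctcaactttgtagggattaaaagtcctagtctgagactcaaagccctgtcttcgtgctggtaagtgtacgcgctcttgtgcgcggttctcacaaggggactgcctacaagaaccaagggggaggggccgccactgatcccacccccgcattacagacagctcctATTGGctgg
Cox8a: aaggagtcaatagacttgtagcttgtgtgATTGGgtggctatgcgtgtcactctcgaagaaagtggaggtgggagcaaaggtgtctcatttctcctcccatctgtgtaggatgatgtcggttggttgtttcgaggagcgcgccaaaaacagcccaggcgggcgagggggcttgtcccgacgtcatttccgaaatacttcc
Cox8b: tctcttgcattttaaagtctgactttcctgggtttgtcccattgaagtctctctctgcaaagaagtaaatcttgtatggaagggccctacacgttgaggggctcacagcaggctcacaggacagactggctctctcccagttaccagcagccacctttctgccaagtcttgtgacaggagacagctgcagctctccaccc
The Cox6b1 stretch holds 13 CG dinucleotides and the Cox6b2 stretch 8, the Cox8a stretch 11 and the Cox8b stretch 1. These matches describe letters only, and a link between them and the levels was not tested.

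RefSeq promoters of 300 bases, 250 before and 50 after the start, were at hand for 74 of the 93 members and for 27025 mouse genes in all, noncoding genes included. The core of the NRF1 site, GCGCATGC on either strand, was in 12 of the 74 (16.2%) and in 3.05% of all promoters; NRF1 is a known activator of respiratory chain genes. The ETS core CCGGAAG, read by GABP among others, was in 18 (24.3%) against 9.93%, and the YY1 core AAGATGGC in 10 (13.5%) against 3.19%. The SP1 core GGGCGG was in 33 (44.6%) against 38.2%, CCAAT in 33 (44.6%) against 41.1% and TATAAA in 7 (9.46%) against 15.7%. Of the 4 restricted isoforms with a promoter (Cox7a1, Cox6b2, Cox7b2 and Cox8b), 0 held the NRF1, ETS or YY1 core, 2 held TATAAA, 2 the SP1 core and 3 CCAAT; with 4 genes these counts separate nothing from the shares of all promoters. The ETS core of Cox8a and the TATAAA of Cox8b lay outside the stretches shown above.

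Of 12 regulators of nuclear mitochondrial genes, factors that bind these sites and others that do not, 11 were above 1 TPM, 5 above the median gene and 4 below it. Among protein-coding genes tested 75.7% were above 1 TPM, 47.1% above the median gene and 46.5% below it. The counts of the 12 were not tested against these shares. The highest were Nrf1, with 48.8, 47.6, 47.3 and 45.0 TPM, and Tfam, which packages and transcribes mitochondrial DNA, with 52.3, 44.4, 44.9 and 46.8 TPM, and they did not differ beyond their spread. The lowest were Ppargc1b, a coactivator, at 3.07 ± 1.17 TPM and the nuclear receptor Esrra at 1.09 ± 0.283 TPM, the one of the 12 not called above 1 TPM.

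Complex V, the ATP synthase, had subunits of its catalytic head among its highest genes. Atp5a1, the alpha subunit, read 1350, 1397, 1265 and 1238 TPM, and Atp5c1, the gamma subunit that turns inside the head, 1159, 1126, 1066 and 1179 TPM. Atp5o, the subunit that ties the head to the peripheral stalk, stood at 863 ± 33.3 TPM. The ranges of these 3 genes did not overlap. With the principal transcript as length Atp5o, at 1345 TPM, was above Atp5e (1275 TPM, from 461 TPM), Atp5c1 (1228 TPM) and Atp5a1 (1103 TPM). The beta subunit Atp5b had a mean of 695 ± 56.1 TPM, the epsilon subunit Atp5e 461 ± 24.8 TPM and the delta subunit Atp5d 353 ± 86.6 TPM. On the merged exon length the 5 genes of the head had a median of 695 TPM and the 8 genes of the stalk and membrane part 322 TPM. The other subunits of the stalk and membrane part lay between 202 TPM (Atp5j2) and 715 TPM (Atp5k), apart from Atp5l. Atp5s, the coupling factor outside the complexes, read 7.78, 9.59, 8.58 and 8.45 TPM.

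Atp5d was the least even of the abundant members. It read 403, 420, 360 and 229 TPM, with replicate 4 at 58.0% of the mean of the others and outside their range. At the other end of complex V, Atp5l, the g subunit of the membrane part, read 2.76, 3.65, 3.68 and 2.68 TPM. Its merged exons span 6443 bases but its principal transcript 544, and with the latter as length its mean was 25.1 TPM. In addition, 68.5% of the 50-base windows of that transcript also occur in transcripts of other genes.

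The c subunit of the rotor is made from 3 genes, and Atp5g3 had most of their summed TPM. Atp5g3 (chr2:73908447-73911326, GRCm38) read 287, 250, 232 and 249 TPM. Atp5g1 (chr11:96068852-96075670) read 84.6, 83.9, 80.5 and 74.1 TPM, and Atp5g2 (chr15:102662864-102672352) read 76.0, 78.2, 77.4 and 56.6 TPM. The lowest library of Atp5g3 was well above the highest of either partner. Of the summed TPM of the 3 genes, Atp5g3 made up 62.5 ± 2.83%, Atp5g1 19.9 ± 0.785% and Atp5g2 17.7 ± 2.20% (SD, n = 4). Atp5g3 was 3.15-fold above Atp5g1 and 3.53-fold above Atp5g2. These shares and folds depend on the length used. The log2 ratio of Atp5g3 over Atp5g1 was 1.64 here, 3.16 with the principal transcript as length and 0.48 without length correction. That over Atp5g2 was 1.81, 2.21 and 2.18 in the same order, so Atp5g3 read highest in each. Of their 50-base windows, Atp5g2 shares 87.4% and Atp5g1 11.6% with transcripts of other genes, and Atp5g3 shares 0. How reads that fit several places were counted is not known, so the levels of Atp5g1 and Atp5g2 are uncertain. The shares and folds are uncertain with them.

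Atp5g1 over Atp5g2 had a log2 ratio of 0.17 ± 0.15, and this order turned to -0.91 with the longest transcript and to -0.95 with the principal transcript as length. The last 225 coding bases before the stop codon are shown for each gene, because over this stretch the 3 genes specify the same residues with different bases. The coding bases before it were not compared. Capitals mark positions where the 3 differ.
Atp5g1: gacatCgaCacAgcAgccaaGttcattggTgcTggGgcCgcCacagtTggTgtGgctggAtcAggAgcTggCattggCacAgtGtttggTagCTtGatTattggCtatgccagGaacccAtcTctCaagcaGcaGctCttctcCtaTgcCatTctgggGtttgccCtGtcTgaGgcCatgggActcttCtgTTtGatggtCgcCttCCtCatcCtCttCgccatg
Atp5g2: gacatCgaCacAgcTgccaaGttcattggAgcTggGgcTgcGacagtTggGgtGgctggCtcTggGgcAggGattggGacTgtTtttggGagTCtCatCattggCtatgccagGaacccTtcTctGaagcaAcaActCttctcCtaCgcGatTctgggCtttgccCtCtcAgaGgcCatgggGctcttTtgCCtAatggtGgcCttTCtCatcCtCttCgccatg
Atp5g3: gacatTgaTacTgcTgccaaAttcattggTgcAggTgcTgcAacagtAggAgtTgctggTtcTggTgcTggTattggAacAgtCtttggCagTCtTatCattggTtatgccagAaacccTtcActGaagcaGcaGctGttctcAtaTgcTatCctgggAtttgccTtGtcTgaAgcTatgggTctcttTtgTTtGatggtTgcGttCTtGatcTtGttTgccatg
The stretches differ at 57 positions, and all 75 codons specify the same residue in the 3 genes. Between Atp5g1 and Atp5g2 84.9% of bases were identical, with a longest identical run of 20 bases, between Atp5g1 and Atp5g3 80% with a run of 11, and between Atp5g2 and Atp5g3 78.7% with a run of 8. Atp5g2 shares 87.4% of its 50-base windows with transcripts of other genes, mostly the transcribed pseudogene Gm10175, while Atp5g3 shares 0.

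Complex I, NADH dehydrogenase, had a median of 288 TPM over its 36 subunits. The highest on the merged exon length were 3 accessory subunits: Ndufc2 of the membrane arm, with 1266, 1337, 1353 and 1317 TPM, Ndufa2 of the NADH-binding module, with 948, 1007, 951 and 834 TPM, and Ndufb9 of the membrane arm, with 817, 842, 812 and 830 TPM. Ndufc2 was above the other 35 in every library. With the principal transcript as length Ndufc2 (964 TPM) was again highest, Ndufa7 (914 TPM, from 399 TPM) came next, and Ndufa2 stood at 620 TPM. By module, the medians were 318 TPM for the 10 subunits of the NADH-binding N module, 285 TPM for the 6 of the ubiquinone-reducing Q module and 340 TPM for the 20 of the membrane arm. Over the 4 libraries the module medians of log2(TPM + 1) were 8.31 ± 0.04, 8.18 ± 0.04 and 8.39 ± 0.09, so the N module and the membrane arm did not differ beyond their spread. Apart from the subunits named here and the lower Ndufs1, Ndufb4, Ndufb2 and Ndufab1, described below, those of complex I lay between 93.4 TPM (Ndufs3) and 764 TPM (Ndufa13).

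The core subunit Ndufv1, which binds FMN and NADH, stood at 281 ± 15.4 TPM, near the median of the complex. Ndufs1, the largest iron-sulfur subunit, was among the lowest with 51.9, 51.9, 51.5 and 53.0 TPM, with a spread of 0.674 TPM. Its merged exons are 8086 bases long against 2661 for its principal transcript, and with the latter as length its mean was 105 TPM.

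The 3 lowest complex I subunits were Ndufb4, Ndufb2 and Ndufab1. The membrane arm subunit Ndufb4 read 30.2, 30.3, 31.1 and 28.0 TPM, and Ndufb2, another one, 12.7, 14.1, 13.3 and 12.6 TPM. Ndufab1, the mitochondrial acyl carrier protein, read 3.82, 3.90, 3.31 and 3.03 TPM from 172 to 302 counts. These 3 ranges did not overlap, and all 3 genes kept their low place with the principal transcript as length, at 39.1, 11.2 and 4.61 TPM.

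The 8 complex I assembly factors, proteins that help build the complex and then leave it, had a median of 69.7 TPM. Ndufaf3 read 120, 127, 107 and 102 TPM, Ndufaf2 88.8, 89.4, 76.1 and 96.6 TPM and Ndufaf5 with 68.3, 82.1, 69.8 and 87.9 TPM. With the principal transcript as length Ndufaf2, at 255 TPM, was above Ndufaf3, at 92.1 TPM. Of the merged exons of Ndufaf2, 65.6% lie opposite B230220B15Rik, and the kit as described does not mark strand, but its principal transcript does not overlap that gene. Ndufaf8 and Ndufaf1 stood at 73.1 and 66.3 TPM, Ndufaf7 and Ndufaf4 at 57.4 and 57.2 TPM, and Ndufaf6 was lowest with 6.06, 5.47, 3.88 and 5.11 TPM. The median log2(TPM + 1) of the subunits of complexes I to V exceeded that of the assembly factors by 2.28 ± 0.07, in 4 of 4 libraries. Of 6 further complex I assembly genes all were above 1 TPM, against 75.7% of protein-coding genes tested. Ecsit at 109 ± 4.26 TPM and Timmdc1 at 99.2 ± 2.74 TPM were highest. Acad9 at 14.8 ± 3.31 TPM and Nubpl at 3.13 ± 0.719 TPM were lowest.

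Complex II, succinate dehydrogenase, is encoded wholly in the nucleus. Its iron-sulfur subunit Sdhb read 574, 565, 558 and 588 TPM, the membrane anchor Sdhd 384, 376, 385 and 384 TPM, the flavoprotein Sdha 307, 309, 293 and 318 TPM and the other anchor, Sdhc, 185, 170, 175 and 150 TPM. The order of the 4 genes was the same in every library and no ranges overlapped. The order of Sdhd and Sdha turned with the principal transcript (253 and 289 TPM) and with the longest transcript (290 and 330 TPM) as length. All 4 complex II assembly genes were above 1 TPM, against 75.7% of protein-coding genes tested. Highest were Sdhaf4 at 197 ± 24.3 TPM and Sdhaf2 at 30.1 ± 2.54 TPM. Sdhaf3 had 14.0 ± 1.29 TPM and Sdhaf1 2.17 ± 0.647 TPM.

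Complex III, the cytochrome bc1 complex, had 7 of its 8 members between 399.5 and 909 TPM. The small subunit Uqcr10 read 901, 974, 870 and 892 TPM, the hinge protein Uqcrh 765, 793, 821 and 738 TPM and Uqcrb 580, 631, 608 and 673 TPM, with Uqcr11 at 609 ± 62.5 TPM. The core subunits Uqcrc1 and Uqcrc2 stood at 406 ± 20.1 and 405 ± 14.2 TPM, and Uqcrq at 399.5 ± 22.6 TPM, 3 neighbours that did not differ beyond their spread on this length. With the principal transcript as length they read 673, 361 and 319 TPM in the same order. Uqcrh, at 1168 TPM, was then above Uqcr10, at 811 TPM. The exception was Uqcrfs1, the Rieske iron-sulfur protein that transfers electrons to cytochrome c1, with 51.6, 45.6, 53.5 and 57.0 TPM. Uqcrfs1 shares 0% of its windows with other transcripts and none of its principal transcript overlaps another gene.

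All 6 complex III assembly genes were above the median gene, against 47.1% of protein-coding genes tested. Uqcc2 at 491 ± 34.4 TPM and Uqcc3 at 158 ± 16.0 TPM were highest. Lyrm7 at 14.1 ± 2.61 TPM and Ttc19 at 13.1 ± 2.2 TPM were lowest. Of 19 complex IV assembly genes 16 were above 1 TPM, against 75.7% of protein-coding genes tested. Coa3 had 561 ± 39.0 TPM and Cox14 386 ± 32.2 TPM, while Sco2, a copper chaperone, and Pet117 had 0 counts. Sco2 lies opposite other genes over 66.2% of its exons. Of 3 complex V assembly genes 2 were above 1 TPM, against the same 75.7%. Atpaf2 stood at 84.8 ± 3.78 TPM, Tmem70 at 14.4 ± 1.18 TPM, and Atpaf1 at 1.08 ± 0.417 TPM was not called.

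The mobile carrier cytochrome c, Cycs, read 90.8, 90.4, 92.6 and 94.4 TPM, and cytochrome c1, Cyc1, 37.2, 32.6, 30.6 and 23.4 TPM. The testis form Cyct had 0 counts in replicate 1 and a mean of 0.160 TPM. The carriers that exchange ADP for ATP across the inner membrane were far higher, with Slc25a4 at 1754 ± 106 TPM and Slc25a5 at 1389 ± 19.5 TPM, and the testis carrier Slc25a31 at 0.0536 TPM. Of 4 supercomplex and respiration factors 3 were above 1 TPM, a share near the 75.7% of protein-coding genes tested. Higd2a at 554 ± 22.7 TPM and Chchd2 at 207 ± 17.7 TPM were highest. Higd1a stood at 52.7 ± 1.78 TPM, and Chchd10 at 0.534 ± 0.289 TPM was not called.

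The complexes were then compared by the median log2(TPM + 1) of their subunits in each library. Complex III stood above complex I by 0.732, 0.789, 0.784 and 0.730, a mean of 0.76 ± 0.03 (SD, n = 4), and complex V above complex I by 0.28 ± 0.04, each in 4 of 4 libraries. Complex IV with all 20 genes lay below complex I, at -0.48 ± 0.11, and above it by 0.92 ± 0.05 once the 8 restricted isoforms were left out. Complex II stood above complex I by 0.23 ± 0.05, but below it, at -0.12, with the longest transcript and, at -0.27, with the principal transcript as length. These differences are larger than the spread between libraries, and no p is given because they are scores over chosen genes.

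The order of the medians thus changed with the genes counted and with their lengths. With the restricted isoforms left out, complex IV (9.11 ± 0.03) and complex III (8.95 ± 0.06) were highest, complex V (8.47 ± 0.08) and complex II (8.42 ± 0.02) did not differ beyond their spread, and complex I (8.19 ± 0.05) was lowest. Within a complex the subunits spanned a far wider range than the medians did, from 3.51 to 1318 TPM in complex I and from 3.19 to 1312 TPM in complex V.

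**Figure D3:**
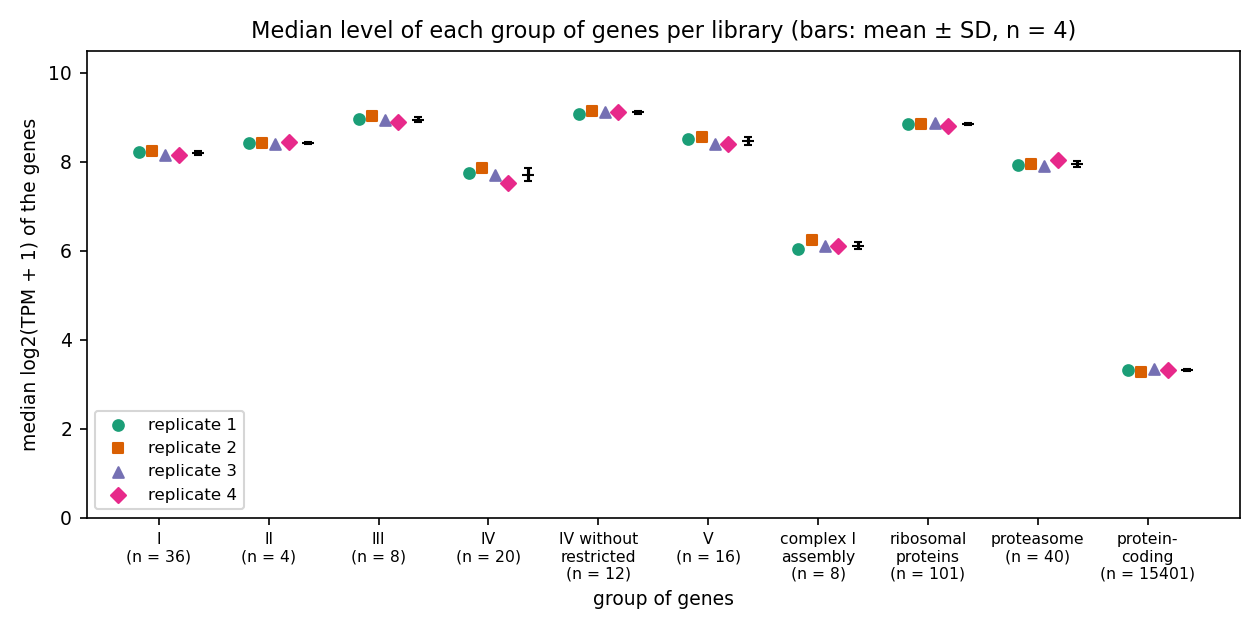
Median log2(TPM + 1) of each group of genes in each library, with the mean ± SD (n = 4) beside the markers. The medians of the 5 complexes lie between 7.5 and 9.1, those of the complex I assembly factors near 6.1 and that of protein-coding genes near 3.3.

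Leaving out the restricted isoforms, 10 of 76 subunits were under 100 TPM: Ndufs3 (93.4 TPM), Atp5g1, Atp5g2, Ndufs1, Uqcrfs1, Ndufb4, Ndufb2, Cox5a, Ndufab1 and Atp5l. With the principal transcript as length 8 of the 76 were under 100 TPM, 7 of these 10 and Ndufs5 (93.3 TPM). Subunit genes have many processed pseudogenes in the mouse genome, and the way reads that fit several places were counted was not given in the sources used here. Of the 76, 19 share at least 10% of their 50-base windows with transcripts of other genes, and their median was 259 TPM with 6 of them under 100 TPM. The other 57 had a median of 394 TPM with 4 under 100 TPM. The most shared sequence was that of Atp5g2 (87.4%) and Atp5l (68.5%), which stood at 72.0 and 3.19 TPM. Next came Cox7c (53.0% shared), Atp5h (47.9%) and Uqcrb (43.2%), at 432, 711 and 623 TPM. The levels of all these genes are uncertain for this reason, and the part of shared sequence in the low values was not tested. The principal transcripts of 24 members also overlap exons of another gene in the genome, most of all those of Cox5a (41.7%), Ndufb6 (39.0%), Ndufa13 (30%) and Uqcrc2 (26.6%), and reads there could belong to either gene.

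The 13 mitochondrially encoded subunits gave a view of the same measure at its extreme. Of these, 8 were above 1 TPM, with mt-Cytb of complex III at 12322 ± 1003 TPM and mt-Nd1 of complex I at 4857 ± 368 TPM highest, and 5 were not tested for lack of counts. mt-Co2, mt-Co3, mt-Atp6 and mt-Nd4l had 5, 0, 2 and 0 counts over the 4 libraries and share 100%, 99.9%, 99.5% and 98.8% of their windows with pseudogenes. mt-Nd3, at 98.0% shared, had 325 counts, while the 7 others that were above 1 TPM share 62.2% or less and had 20600 counts or more. mt-Atp8 had 0 counts and shares 0% by this measure, which leaves out genes that overlap it. The part of shared sequence in these counts was not tested, and they are not set against the nuclear subunits here.

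**Figure D4:**
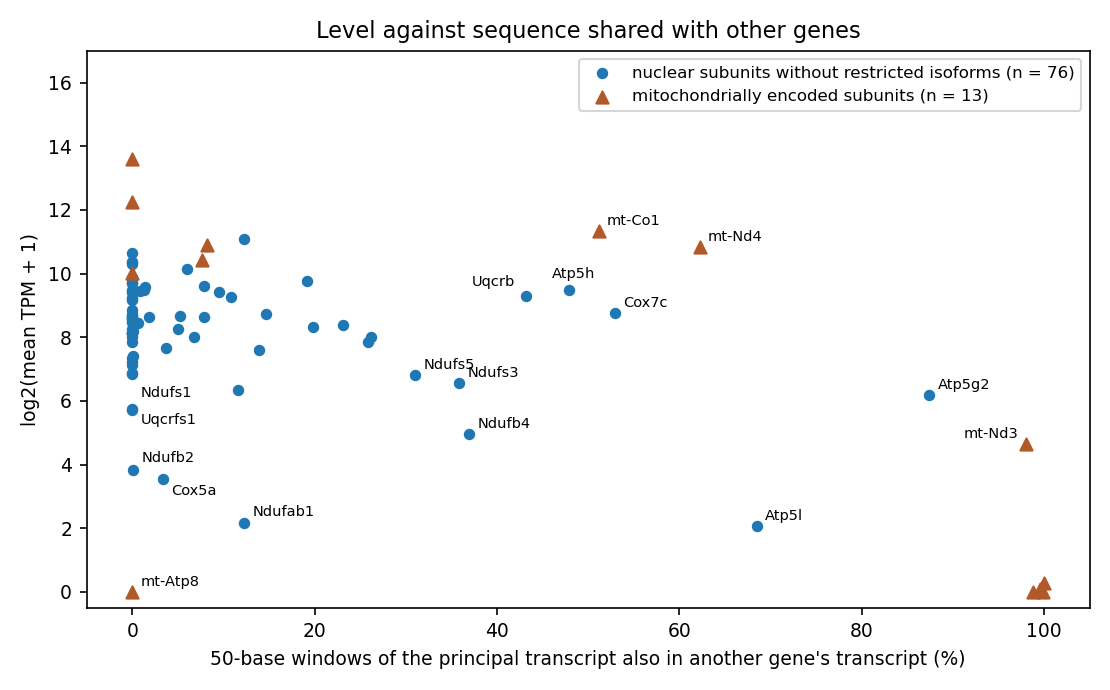
Level, as log2(mean TPM + 1), against the percent of 50-base windows of the principal transcript that also occur in another gene's transcript, for 76 nuclear subunits and 13 mitochondrially encoded ones. Of the mitochondrial genes, 4 near 100% sit at or close to 0, and nuclear Cox7c, Atp5h and Uqcrb, at 43.2% to 53.0%, lie between 432 and 711 TPM.

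The spread between libraries was small for most members. Of the 89 with at least 40 counts, the median SD of log2(TPM + 1) was 0.084, against 0.158 for protein-coding genes, and 76 of 89 were below the latter; the 2 sets were not matched for level. A comparison of each gene's spread with the trend at its level, by edgeR, called 0 of 16706 genes more variable, members included, so with 4 libraries it says nothing about how stable the members are. At an unadjusted p under 0.05 there were 634 genes (3.80%) and 2 members, Atp5d and Ndufa10. The largest SDs of log2(TPM + 1) were those of Cox5a, Ndufa4l2 and Atp5d.

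Replicates 2 and 4 stood at the ends. Replicate 2 was the highest library for 47 of the members and the lowest for 4, and replicate 4 was the lowest for 50. Among protein-coding genes the same shares were 19.6% highest and 28.2% lowest for replicate 2, and 27.6% lowest for replicate 4. Replicate 2 also had the highest summed erythroid level, whose part in this was not tested. In replicate 4, 64 of 89 members were below the mean of the other libraries, with a median log2 deviation of -0.08. Among 13770 protein-coding genes 6670 were below it, with a median deviation of 0.01.

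Cox5a, Atp5d, Ndufa4l2, Ndufa10 and Atp5g2 were the furthest down in replicate 4, at 46.9%, 58.0%, 56.0%, 69.1% and 73.3% of the others. Ndufaf5 and Ndufv2 were the furthest up, at 120% and 118%. The GC content of the principal transcript moved with the deviations of replicate 4. Across the 89 members Pearson's r was -0.39 and across 13770 protein-coding genes -0.40, as a description over genes of the same libraries. For replicates 1, 2 and 3 the members' r was 0.345, 0.078 and 0.139, and that of protein-coding genes 0.222, 0.193 and 0.033. Cox5a, furthest down in replicate 4, had a GC content of 49.0%, under the median of 51.0% over all members. The 30 members of highest GC content had a median deviation of -0.15 in replicate 4 and the 30 of lowest GC content one of 0.03. For protein-coding genes the 4590 of highest and the 4590 of lowest GC content had -0.135 and 0.141. Replicate 4 had the fewest counts, and the part of GC content or depth in its lower values was not tested.

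**Figure D5:**
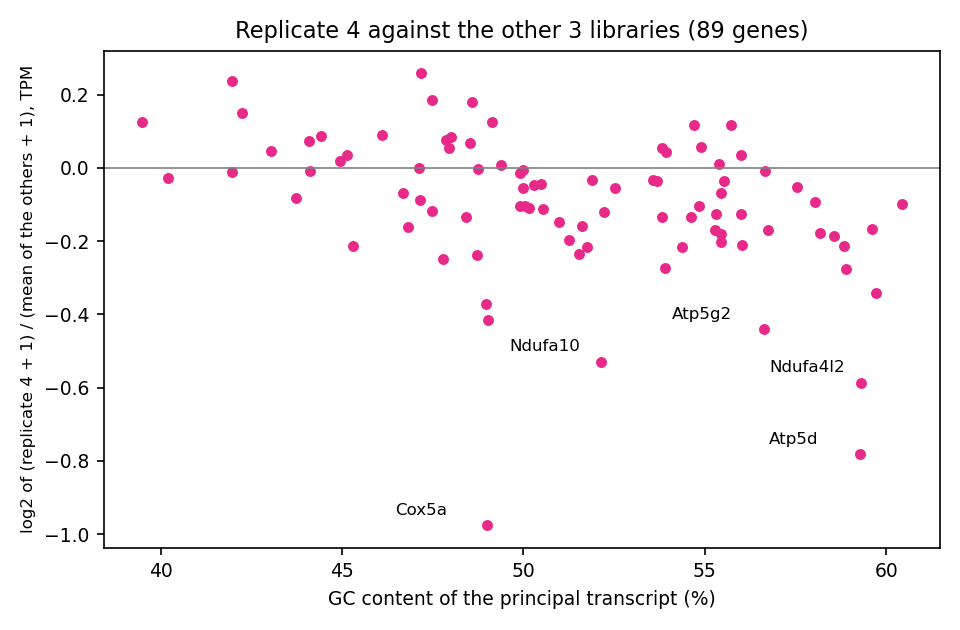
Log2 deviation of replicate 4 from the mean of the other 3 libraries against the GC content of the principal transcript, with 1 point for each of the 89 members with at least 40 counts. Most points lie below 0, and Cox5a, at -0.98, and Atp5d, at -0.78, lie lowest.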

How the data were processed

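The authors deposited a table of read counts per Ensembl gene and a table of TPM values for 15648 genes. Per the labels' protocols, cDNA was primed by poly-dT on total RNA, completed by template switching, amplified and fragmented. Per the submitters' processing notes, bcl2fastq 2.19.1 and STAR 2.5.2b were used with GRCm38, with counter, strand setting and annotation not given in the sources used here. Deposited TPM values follow gene span: 94.9% of 9485 genes compared lay within 0.01 log2 of it and 0.791% within 0.01 of merged exon length. TPM was therefore recomputed from the deposited counts with GENCODE M21 merged exon lengths (45143 of 45706 genes matched), which understates genes with long rare exons.

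Genes with at least 10 counts were tested against 1 TPM and against the median protein-coding gene (9.0 TPM) with edgeR 4.0.16 in R 4.3.3. Its quasi-likelihood F statistic was written out for a one-group design, since the packaged test takes no such design, and the code was tested on simulated data. Benjamini-Hochberg adjustment ran over all genes tested, at 0.05. Medians and ratios used log2(TPM + 1), pseudocount 1. Spread was tested for genes with at least 40 counts.

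Alternatives were other gene lengths, the deposited TPM scale, no length, TMM, no filter, DESeq2 1.42.0, limma 3.58.1, another pseudocount, means for medians, and leaving out each library; the principal-transcript length was added after seeing the data. The members and lists were chosen with earlier results of these data known. Genes named are all paralogue families, the top and bottom 3 subunits of each complex and assembly factors, members not called above 1 TPM, the 3 largest SDs and the 2 highest and lowest of each pathway list; other members named were chosen after their values were seen. Precision rests on 4 libraries of 26540656 to 34837657 counts. The values of 1 member are not reported here.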

Additional observations from a re-analysis of the deposited data

Results flagged for a closer look

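Of 66 sets of 4 libraries examined for a single value far from the others, 3 stood apart, where chance gives about 1 in 20. Atp5g2 read 56.6 TPM in replicate 4 against 76.0 to 78.2 TPM in the others. Cox7b read 359 TPM in replicate 2 against 343 to 346 TPM, and Sdhd 376 TPM in replicate 2 against 384 to 385 TPM. Outside the members, the 11 processed pseudogenes whose symbols match the same pattern, such as Cox6c2 (138 counts) and Ndufb4c (69 counts), held 514 counts over the 4 libraries.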

How the results depend on the processing

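No paired analysis was possible because all 4 libraries form a single group. The count of members above 1 TPM was 86 to 89 under every alternative that kept the 93 members and 72 of 74 on the deposited TPM scale; the count above the median gene was 80 to 83, and 66 of 74. The differences between complexes moved with gene length and, for complex IV, most with the genes counted and the use of means. In the order complex II, III, IV and V minus complex I, then subunits minus assembly factors, with the cause not tested: with the longest transcript, -0.12 (turned), 0.57, V 0.44 and assembly 2.61; on the deposited TPM scale 0.11, 1.53, -0.16, 1.16 and 1.88; without length (CPM) complex II 0.67, III 0.28, V 0.55 and assembly 1.67; as means over subunits complex II 0.43, IV -2.06 and assembly 1.81; with the principal transcript -0.27 (turned), 0.91, -0.25, 0.999 and 2.55. Leaving out the restricted isoforms turned complex IV to 0.92 and moved assembly to 2.44. Leaving out each library in turn gave 0.21 to 0.25, 0.75 to 0.77, -0.52 to -0.43, 0.26 to 0.29 and 2.25 to 2.31; 89 members above 1 TPM each time, 80 to 82 above the median gene, 12 of 12 pairs in one order and 0 genes of greater spread. Atp5g1 over Atp5g2 turned to -0.91 with the longest and -0.95 with the principal transcript.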
